A study of Mus musculus with 8 samples.

Results

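Of 5733 cells with at least 1000 detected genes in 8 Drop-seq libraries of mouse brain and glioma, 279 (4.87%) were endothelial cells by the rule used here, 187 of them in naïve brain and 92 in tumour-bearing brain. Levels are given as UMIs (unique molecular identifiers, each counting 1 captured mRNA molecule) per 10,000 UMIs of a cell or of a sum of cells. Cells were selected on their own counts: a cell was taken when 6 endothelial genes (*Cldn5*, *Ly6c1*, *Flt1*, *Pecam1*, *Slco1a4* and *Ptprb*) summed to at least 20, at least 3 of them were detected, and their sum exceeded that of the mural and fibroblast genes *Rgs5*, *Vtn*, *Pdgfrb*, *Acta2*, *Col1a2* and *Dcn*. The genes *Col9a1*, *Lect1* and *Rhox5*, which mark the tumour cells, had to sum to under 10. These 15 genes chose the cells, so their levels are described here and not tested.

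The libraries came from C57BL/6 mice (C57BL/6N by the methods), WT (Irg1/Acod1 +/+) or KO (Irg1/Acod1 -/-), with 1 library per genotype in untreated (naïve) brain and at 3 tumour sizes. GL261 is a mouse glioma line that engrafts in this strain, and 500 cells were placed in the brain. Tumours measured 5 to 10 mm3 at the early, 20 to 25 mm3 at the intermediate and 30 to 35 mm3 at the late stage, whereas naïve mice were untreated and each naïve label names 2 mice. By the methods the mice were perfused before dissection, naïve brain and dissected tumour region were dissociated with enzymes, myelin was removed, and the WT early and KO intermediate mice were female. Ages are not given in the sources used here. Brain region and tumour therefore cannot be told apart. The methods do not give the sex of the naïve mice. Over all cells, the WT and KO naïve libraries held 221 and 177 UMIs of the sex-linked *Ddx3y* and 1 and 0 of *Xist*. The WT early and KO intermediate libraries held 1 and 1 of *Ddx3y* and 1341 and 824 of *Xist*. The p-values rest on the spread between single libraries, which for the tumour-bearing group are of different stages and genotypes. In the edgeR fits used below, the spread of a gene is moderated towards that of other genes. A small p-value there does not show that the libraries of a group are alike for that gene.

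The endothelium of brain vessels is joined by tight junctions and carries transporters and efflux pumps, which together form the blood-brain barrier. Pericytes and smooth muscle cells, the mural cells, wrap these vessels, so a droplet can hold RNA of both. Tumour vessels are known to sprout under the vascular endothelial growth factor (VEGF) and to remodel their basement membrane, and endothelial cells answer growth factors, stress and interferon with rapid changes in transcription.

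The cells carried the endothelial genes, but they were not free of mural transcripts. The 6 endothelial genes had a median sum of 169 UMIs per 10,000 and all 6 were detected in 204 of the 279 cells. Another 20 endothelial genes that the rule did not use summed to 76.2 to 99.8 in the libraries' endothelial cells, against 1.43 to 3.81 in the other cells that were not tumour cells. The mural and fibroblast genes had a median of 1.62 and were at 0 in 131 cells, but 111 cells held at least 5, and in 20 cells they exceeded 0.5 of the endothelial sum. A further 18 cells met the endothelial minimum and were left out for their mural sum. The 5 cells just inside the endothelial minimum held 20.3 to 33.2 and the 5 just outside 1.90 to 17.6. At the mural border, the nearest cell inside held 54.1 endothelial against 51.9 mural UMIs per 10,000 and the nearest outside 59.0 against 59.0.

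**Figure D1:**
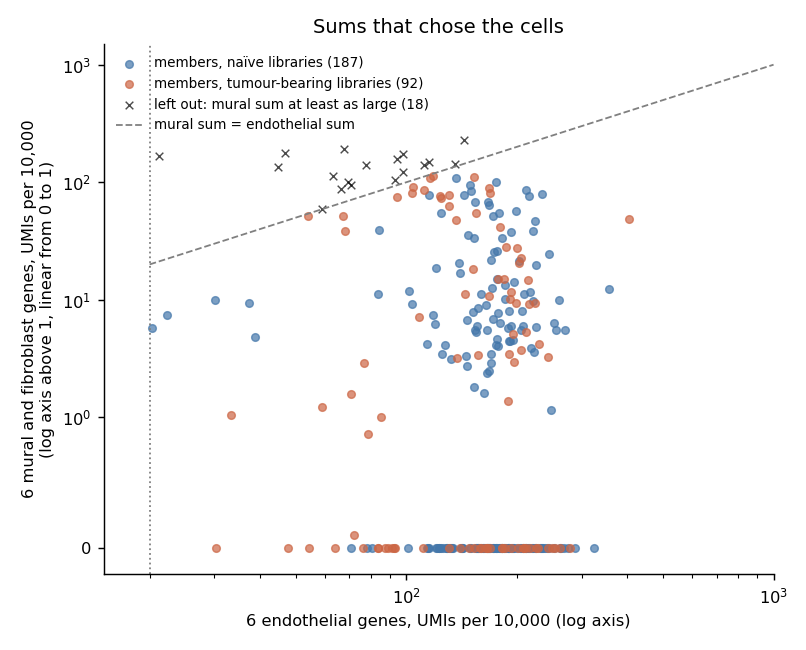
Summed endothelial genes (x axis, log scale) against summed mural and fibroblast genes (y axis, log above 1) in UMIs per 10,000 for each cell that met the endothelial minimum. Points are the 187 cells of naïve and the 92 cells of tumour-bearing libraries, crosses the 18 cells left out by the mural condition, and 131 points lie at 0 mural UMIs.

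By library, the endothelial cells numbered 90 in WT naïve, 97 in KO naïve, 35 in WT early, 14 in KO early, 3 in WT intermediate, 15 in KO intermediate, 10 in WT late and 15 in KO late. The tumour-bearing samples thus held far fewer cells than the naïve ones. As a share of the cells that were not tumour cells this was 19.4% (WT) and 21.0% (KO) in naïve brain, with exact binomial 95% intervals of 15.9 to 23.3% and 17.3 to 24.9%. Among tumour-bearing libraries it ranged from 3.80% (WT intermediate, 0.790 to 10.7%) to 7.51% (WT early, 5.29 to 10.3%). The means were 5.78% ± 1.30 (SD, n = 6) and 20.2% ± 1.07 (SD, n = 2), which do not overlap, with p = 0.0714 by a two-sided exact permutation test, the smallest value 28 regroupings allow. The intervals cover counting error only. Fewer endothelial cells and more cells of other types cannot be told apart in a share, and the naïve samples were brain whereas the tumour samples were dissected regions.

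Some of the 279 barcodes were copies of a single cell, and a few cells dominated the sums. Barcodes of 1 library that differed at 1 base were read as 1 cell, which left 266 distinct cells, 28 in place of 35 in WT early, 13 in place of 15 in KO intermediate, 12 in place of 15 in KO late and 89 in place of 90 in WT naïve. Of 23 pairs of such like barcodes, 1 differed at p under 0.05 by a chi-square test of its counts. The largest distinct cell held 105041 of the 159910 UMIs of KO intermediate (65.7%), 41194 of the 67366 of WT late (61.1%) and 44362 of the 152242 of WT early (29.1%), whereas in naïve libraries it held 5.32% and 5.88%. The main results are therefore also given with like barcodes merged and each cell reduced at random to at most 3000 UMIs (capped), and with the largest cell of each library left out. Both were chosen after seeing the data. Median depth was 2356 and 2572 UMIs per cell in naïve and 2140 to 3282 in tumour-bearing libraries.

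**Figure D2:**
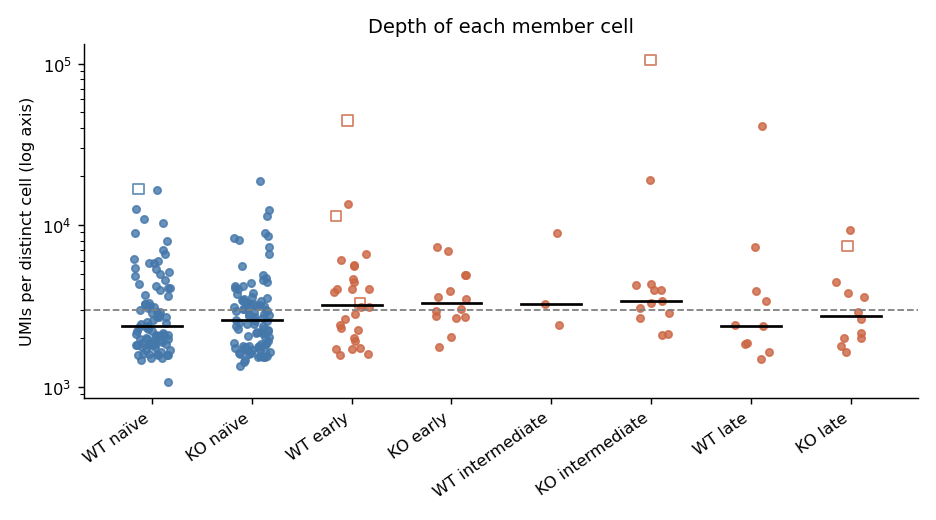
UMIs of each distinct endothelial cell by library (log axis, naïve blue, tumour-bearing orange); squares are cells whose like barcodes were merged, bars are medians over distinct cells and the dashed line marks 3000 UMIs. The cell of 105041 UMIs in KO intermediate and the cells of 44362 and 41194 UMIs in WT early and WT late stand above all others.

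Of the remaining facts of the series, 1 barcode was shared by endothelial cells of the naïve libraries. Scrublet, a caller of droplets with 2 cells, marked 11 endothelial cells, but it marked under 0.5% of cells in 3 libraries, where it is taken not to have worked, and 9.50% in KO naïve. The 1000 smallest of the 3000 barcodes of each library, too small to be taken as cells, served as a measure of RNA outside cells (low-UMI barcodes). *Acod1*, the targeted gene, encodes the enzyme that makes itaconate. It had 0 UMIs in the endothelial cells of all 8 libraries. Over all cells it was present in tumour-bearing libraries of both labels (WT 161, 21 and 10 UMIs, KO 33, 26 and 41 at the early, intermediate and late stage). The KO allele carries a cassette between exons 3 and 5 by the methods, and the sources used here do not say if transcripts of that allele are still counted at their 3′ end. By the methods the mice were genotyped by PCR, and a check of the gene in cultured KO macrophages is part of the study and was not analysed here. Libraries are called by their labels, KO meaning labelled KO.

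To ask how brain endothelium differs in the presence of a glioma, the UMIs of the endothelial cells were summed per library, and 5 tumour-bearing libraries were compared with both naïve libraries. WT intermediate, with 3 cells, was described and not fitted. With edgeR (quasi-likelihood test, p-values adjusted by Benjamini-Hochberg over 4357 genes), 157 genes (3.6%) were higher and 40 (0.918%) lower in tumour-bearing libraries. Capped, 97 (2.23%) and 25 (0.574%) passed, and with the largest cells left out 70 (1.61%) and 11 (0.252%). DESeq2 called 130 higher and 12 lower. In all 3 edgeR fits (all UMIs, capped, largest cells left out), 53 (1.22%) passed as higher and 9 (0.207%) as lower. All 157 and all 40 kept their sign when capped, while 74 and 14 of them still passed.

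Immediate early genes rose in the tumour-bearing libraries. These genes are transcribed within minutes of a stimulus without new protein synthesis, and many encode transcription factors. Of the 28 listed, 20 rose and 0 fell, against 3.6% and 0.918% of all genes, and the median log2 fold change was 1.84, against -0.0021 over all genes tested. Capped, 19 rose (2.23% of all genes), and with the largest cells left out 18 (1.61%). Summed, the list stood at 84.1 and 88.1 UMIs per 10,000 in naïve endothelial cells. It reached 216 in WT early, 431 in KO early, 237 in WT intermediate, 219 in KO intermediate, 178 in WT late and 299 in KO late. All 6 tumour-bearing libraries were thus above both naïve ones. KO early was the highest and WT late the lowest of them, and capped the range was 239 to 425.

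*Fos* (chromosome 12, 85473890 to 85477273, plus strand of GRCm38), a subunit of the transcription factor AP-1, was at 1.02 UMIs per 10,000 in WT naïve and 1.75 in KO naïve. It was at 27.7 in WT early, 59.4 in KO early, 32.3 in WT intermediate, 18.7 in KO intermediate, 24.2 in WT late and 47.9 in KO late. The groups lie far apart, with KO intermediate the lowest of the tumour-bearing libraries. Over the 5 fitted libraries the mean was 35.6 ± 17.3 (SD, n = 5), and the log2 fold change was 4.60 (SE 0.51, edgeR adjusted p = 1.28e-05), or 4.69 capped (adjusted p = 1.47e-17). *Fosb* (chromosome 7, 19302696 to 19310051, minus strand), which encodes a related subunit, went from 0.0952 and 0.313 in naïve to between 3.86 (WT late) and 18.3 (KO early). Its log2 fold change was 5.28 (SE 0.57, edgeR adjusted p = 1.21e-05). *Junb* (chromosome 8, 84974484 to 84978718, minus strand), an AP-1 partner of Fos, went from 0.635 and 1.31 to between 5.05 (WT late) and 23.1 (KO early), a log2 fold change of 3.41 (SE 0.48, edgeR adjusted p = 0.000143). *Jun* (chromosome 4, 95049034 to 95052222, minus strand), already abundant in naïve endothelium at 9.05 and 12.1, reached 22.1 to 56.7, a log2 fold change of 1.75 (SE 0.40, edgeR adjusted p = 0.0112). The study named *Junb* on these samples. It also showed *Fos*, *Egr1*, *Atf3* and *Cyr61*, beside *Junb*, among the top up-regulated genes of tumour-associated endothelial cells. The direction of these genes is therefore not independent evidence.

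The rise was spread over cells and not carried by the largest ones. *Fos* UMIs were found in 33 of 186 distinct naïve cells (17.7%) and in 67 of 80 tumour-bearing cells (83.8%). With every cell thinned to 1500 UMIs and shallower cells left out (5 naïve and 1 tumour-bearing), the shares were 13.3% and 79.7%, with a range of 58.3 to 100% over the 6 tumour-bearing libraries. *Junb* went from 14.9% to 68.4%, *Egr1* from 7.18% to 60.8% and *Jun* from 63.0% to 91.1% of thinned cells. The other cells that were not tumour cells carried these transcripts too. *Fos* was in 20.6% of them in naïve and 51.5% in tumour-bearing libraries, and *Jun* in 41.8% and 42.8%. Their summed immediate early level was 49.2 and 72.5 in naïve and 94.0 to 114 in tumour-bearing libraries, and that of low-UMI barcodes 36.9 and 42.5 against 52.3 to 74.3. Whether the change was larger in endothelial cells than in other cells was not tested, nor was the part of dissociation or of RNA outside cells in it.

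**Figure D3:**
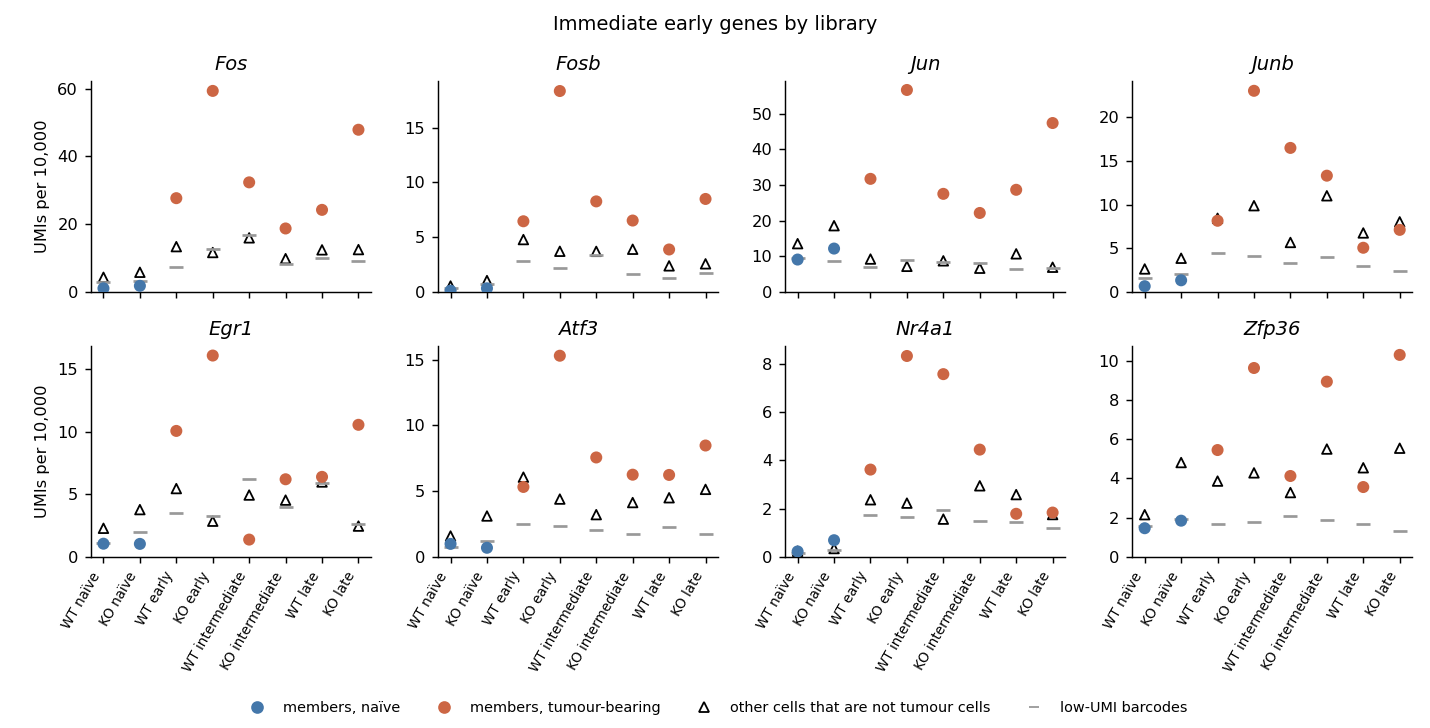
UMIs per 10,000 of 8 immediate early genes by library in the endothelial cells (members, circles, naïve blue and tumour-bearing orange), in other cells that are not tumour cells (triangles) and in low-UMI barcodes (dashes). For *Fos*, circles run from 1.02 to 1.75 in naïve and from 18.7 to 59.4 in tumour-bearing libraries.

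The further members that rose cover several roles. Among transcription factors, *Egr1*, a zinc finger activator, went from 1.05 and 1.03 to 6.19 to 16.1 in the 5 fitted libraries (log2 fold change 3.17, SE 0.45, edgeR adjusted p = 0.000147), but stood at 1.38 in WT intermediate. *Atf3*, a stress-responsive repressor, went from 0.984 and 0.688 to between 5.32 and 15.3 (log2 fold change 3.15, SE 0.47, adjusted p = 0.000243). *Nr4a1*, an orphan nuclear receptor, went from 0.222 and 0.688 to between 1.78 (WT late) and 8.32 (KO early). Among feedback inhibitors, *Socs3*, which restrains JAK-STAT signalling, had a log2 fold change of 3.79 (capped 2.61), *Zfp36*, which promotes mRNA decay, of 2.02 (capped 2.07), and *Dusp1*, a phosphatase of MAP kinases, of 1.62 (capped 1.86). *Nfkbiz*, a nuclear modulator of NF-κB targets, had 4.85 (capped 4.97), *Ppp1r15a*, which reverses the stress-induced block of translation, 2.65 (capped 2.61), and *Cyr61*, a secreted matrix protein, 2.64 (capped 2.43). *Btg2*, a brake on proliferation, *Ier2*, *Ier3* and *Jund* had log2 fold changes from 1.40 to 2.06 and passed in both other fits. *Cebpd* and *Ier5* rose on all UMIs but not in either other fit (capped adjusted p = 0.302 and 0.641), and *Gadd45b* not when capped (0.158). *Klf2*, *Klf4*, *Klf6*, *Nfkbia*, *Gadd45g*, *Rhob*, *Mcl1* and *Cebpb* did not pass on all UMIs, with log2 fold changes from -0.03 (*Mcl1*) to 2.85 (*Cebpb*, adjusted p = 0.0505), but *Klf2*, a flow-responsive factor (1.09, adjusted p = 0.0396), and *Cebpb* (3.72, adjusted p = 0.00355) passed when capped.

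In 21 of the 28 genes every fitted tumour-bearing library lay above both naïve ones, as in 9.32% of all genes. *Ier2* was the 1 called gene without this. Of the list, 12 of 28 passed without WT naïve and 10 without KO naïve, and 11 of 26 within WT and 13 of 28 within KO libraries. *Fos*, *Fosb*, *Junb*, *Egr1*, *Atf3*, *Nr4a1* and *Ppp1r15a* passed in all 28 alternatives to which they were put.

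Promoters of these genes were searched for the sites that immediate early control is known for. RefSeq promoters (GRCm38.p6, 250 bases before to 50 after each start) were found for 23 of the 28 genes. The cyclic AMP response element TGACGTCA, which CREB family factors bind, lay in 3 of them (13.0%), against 1.79% of all 32851 promoters. The AP-1 site TGANTCA (both strands) lay in 0 of 23, against 7.81%, and the CArG box, which serum response factor binds, in 1 (*Zfp36*), against 1.63%. A match is a run of letters and not a bound site. The 250 bases before the start are shown for the 3 promoters with the response element, which is in capitals.
Btg2, chr1:134079156-134079405, minus strand: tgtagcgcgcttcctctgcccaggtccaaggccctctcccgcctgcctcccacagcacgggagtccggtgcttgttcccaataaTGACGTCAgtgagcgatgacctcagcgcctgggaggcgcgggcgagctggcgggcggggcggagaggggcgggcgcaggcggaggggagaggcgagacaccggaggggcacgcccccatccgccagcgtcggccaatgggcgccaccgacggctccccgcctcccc
Dusp1, chr17:26508473-26508722, minus strand: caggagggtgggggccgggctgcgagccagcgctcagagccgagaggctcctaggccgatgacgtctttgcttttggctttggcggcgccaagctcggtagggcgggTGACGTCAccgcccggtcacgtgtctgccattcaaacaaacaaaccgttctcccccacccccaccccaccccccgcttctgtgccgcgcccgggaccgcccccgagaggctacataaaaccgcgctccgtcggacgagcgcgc
Ppp1r15a, chr7:45526269-45526518, minus strand: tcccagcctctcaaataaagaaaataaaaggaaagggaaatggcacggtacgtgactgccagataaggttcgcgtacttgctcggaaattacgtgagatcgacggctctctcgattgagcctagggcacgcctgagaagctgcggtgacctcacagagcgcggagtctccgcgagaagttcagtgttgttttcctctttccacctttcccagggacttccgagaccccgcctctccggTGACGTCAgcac
The element begins 166 bases before the start of *Btg2*, 143 before that of *Dusp1* and 12 before that of *Ppp1r15a*. All 3 transcripts rose, but so did 20 of the 28 listed genes as a whole. Whether the element goes with the rise was not tested.

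Heat shock genes, which encode chaperones, were listed apart from the immediate early genes as a second sign of stress. Of 11, 1 rose on all UMIs, against 3.6% of all genes. It was *Hspa5*, the chaperone of the endoplasmic reticulum, which went from 5.68 and 4.35 to between 9.85 and 18.8 (log2 fold change 1.41, SE 0.37, edgeR adjusted p = 0.0266). Capped, 3 rose (2.23% of all genes), with *Hspa1a* at 1.70 and *Hspa1b* at 1.72 beside *Hspa5* at 1.10. *Hspa5* was as high in low-UMI barcodes of tumour-bearing libraries, at 9.84 to 17.1.

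Of the interferon-induced genes a smaller number rose. Interferons signal through STAT proteins to genes that restrict viruses and attract lymphocytes. Of 30, 6 rose, against 3.6% of all genes, and 0 fell (median log2 fold change 1.07), with 9 higher capped (2.23%) and 4 with the largest cells left out (1.61%). The list summed to 86.6 and 91.2 UMIs per 10,000 in naïve cells, and to 118, 177, 110, 179, 108 and 244 in WT early, KO early, WT intermediate, KO intermediate, WT late and KO late. All 6 were above the naïve libraries, and at each stage the library labelled KO held the higher level, which was not tested per stage. Capped, the list was at 102 in WT intermediate, 115.5 in KO intermediate and 131 in WT late. The same list was at 12.1 and 13.0 in naïve and at 38.6 to 122 in tumour-bearing low-UMI barcodes, and their part was not tested. These barcodes too were higher in KO at each stage (WT and KO 53.4 and 122, 61.1 and 87.2, 38.6 and 116). So were the other cells that were not tumour cells (80.5 and 124, 41.3 and 81.5, 40.7 and 124).

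*Isg15* (chromosome 4, 156199424 to 156200818, minus strand), a ubiquitin-like modifier, was at 0.730 and 1.31 in naïve and at 2.17, 4.91, 4.13, 2.50, 2.08 and 5.50 in the tumour-bearing libraries in the same order (log2 fold change 1.57, SE 0.37, adjusted p = 0.0153). The groups did not overlap. Thinned, 10.5% of naïve and 40.5% of tumour-bearing endothelial cells held an *Isg15* UMI, against 0.554% and 19.0% of the other cells. *Bst2* (chromosome 8, 71534255 to 71537456, minus strand), a membrane protein that tethers budding virus, went from 1.59 and 1.25 to between 4.01 and 8.01 (log2 fold change 2.04, SE 0.38, adjusted p = 0.00208). *Ifitm3*, a membrane protein that blocks viral entry, was at 7.81 and 9.38 and reached 16.7 to 29.3, and *Irf7*, a transcription factor of the response, had a log2 fold change of 1.75 (capped 2.00). The chemokines *Cxcl9* and *Cxcl10*, which attract T cells, had the largest folds but came from few cells. Of 132 *Cxcl9* UMIs in KO intermediate 127 lay in 1 cell, as did 128 of 131 in KO late, and KO early, WT intermediate and WT late had 0. Of the 6 that rose, *Isg15*, *Irf7* and *Bst2* passed in all 3 fits. Without KO naïve, 0 of 30 passed. Within WT libraries 0 of 24 passed with a median of 0.42, and within KO libraries 8 of 30 with a median of 1.51, a difference that was not tested. At an unadjusted p under 0.05 15 of 30 were higher on all UMIs, and DESeq2 called 5.

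The interferon-stimulated response element is the site of the STAT and IRF factors, and its core was searched on both strands as GAAA, any 2 bases, GAAA. It lay in promoters of 15 of the 23 listed genes with a RefSeq promoter (65.2%), against 3.99% of all genes. Of these 15, *Bst2*, *Cxcl10*, *Ifitm3* and *Isg15* rose on all UMIs. The others, *Gbp2*, *Gbp3*, *Gbp7*, *Ifit1*, *Ifit3*, *Ifitm2*, *Igtp*, *Irgm1*, *Irgm2*, *Rsad2* and *Stat2*, did not pass. Whether the core goes with the rise was not tested. The 250 bases before the start of *Isg15* and *Bst2*, both of which rose, show it in capitals, with 3 overlapping matches in *Isg15* and 2 in *Bst2*.
Isg15, chr4:156200819-156201068, minus strand: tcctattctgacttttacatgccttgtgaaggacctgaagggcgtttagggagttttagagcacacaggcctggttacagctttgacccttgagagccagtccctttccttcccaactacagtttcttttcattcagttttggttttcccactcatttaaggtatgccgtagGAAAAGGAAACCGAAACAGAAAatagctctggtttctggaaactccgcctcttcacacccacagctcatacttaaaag
Bst2, chr8:71537473-71537722, minus strand: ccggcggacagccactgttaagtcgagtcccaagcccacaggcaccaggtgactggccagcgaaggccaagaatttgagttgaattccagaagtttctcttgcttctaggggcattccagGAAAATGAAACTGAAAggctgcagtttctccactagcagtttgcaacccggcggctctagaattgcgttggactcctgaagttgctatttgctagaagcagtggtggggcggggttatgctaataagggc
Of the immediate early promoters 1 held this core (*Ppp1r15a*).

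Genes of antigen presentation divided by class. Class I molecules, which show peptides on most cells, were present in naïve endothelium, and their list summed to 70.0 and 68.2 there and to 122, 149, 73.6, 203, 75.1 and 230 in the tumour-bearing libraries in the order above. WT intermediate and WT late stood close to naïve, and KO intermediate and KO late furthest above, although capped KO intermediate (113) and WT late (115) were alike. Of 17, 4 rose, against 3.6% of all genes, and 0 fell (median log2 fold change 1.05). The 4 were *Psmb9*, a subunit of the immunoproteasome (1.93, SE 0.49, edgeR adjusted p = 0.0242), *H2-Q7* (2.47), *H2-Q6* (2.26) and *Tap1*, the peptide transporter (2.61). *Psmb9* and *H2-Q7* passed in all 3 fits. *H2-Q6* and *H2-Q7* are near-identical copies, so their division of reads is uncertain. *B2m*, the light chain of class I, was at 32.5 and 30.7 in naïve and at 35.6 to 115 in the 5 fitted libraries (log2 fold change 1.02, adjusted p = 0.148), and *H2-D1* (0.84) and *H2-K1* (1.16) did not pass on all UMIs, *H2-K1* passing when capped (1.08, adjusted p = 0.0396). Without KO naïve, 0 of 17 passed. The low-UMI barcodes went from 19.0 and 17.6 to between 54.3 and 189 for this list, and their part was not tested.

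Class II molecules are the mark of professional antigen-presenting cells. All 4 listed genes passed as higher, against 3.6% of all genes, but in few cells. *Cd74*, the class II invariant chain, had 0 UMIs in 186 naïve cells. If cells were independent this would allow up to 1.61% of cells with a UMI. They came from 2 libraries, so the bound leaves out the spread between libraries. In tumour-bearing libraries 23 of 80 cells held it, in WT early (10 UMIs), KO early (9), KO intermediate (445, of which 439 in 1 cell) and KO late (45, of which 37 in 1 cell). WT intermediate and WT late had 0. The mean over 5 libraries was 8.10 ± 11.8 (SD, n = 5) UMIs per 10,000. With naïve libraries at 0 the fitted fold is no bound, and it fell from 9.79 on all UMIs to 7.74 capped and 6.86 without the largest cells (adjusted p = 0.000628, 6.69e-11 and 3.18e-05). *H2-Aa*, *H2-Ab1* and *H2-Eb1* also had their UMIs mostly in KO intermediate and KO late. Other cells held the list at 8.01 to 171 and low-UMI barcodes at 1.74 to 59.7 in tumour-bearing libraries, both lowest in WT intermediate or WT late. No class II gene passed without KO naïve, and none could be tested within WT libraries. KO intermediate, at 61.4 for the list against 59.7 in its low-UMI barcodes, was the 1 tumour-bearing library in which the endothelial level was the higher, and capped it was at 11.4. The part of RNA from other cells was not tested. *Cd74* and *H2-Q7* were named by the study on these samples in its main text, as were *Junb*, *B2m*, *H2-D1*, *H2-K1* and *Spp1*. Their direction is not independent evidence. Of the 6 of these 7 that were tested, 3 passed as higher on all UMIs, against 3.6% of all genes.

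**Figure D4:**
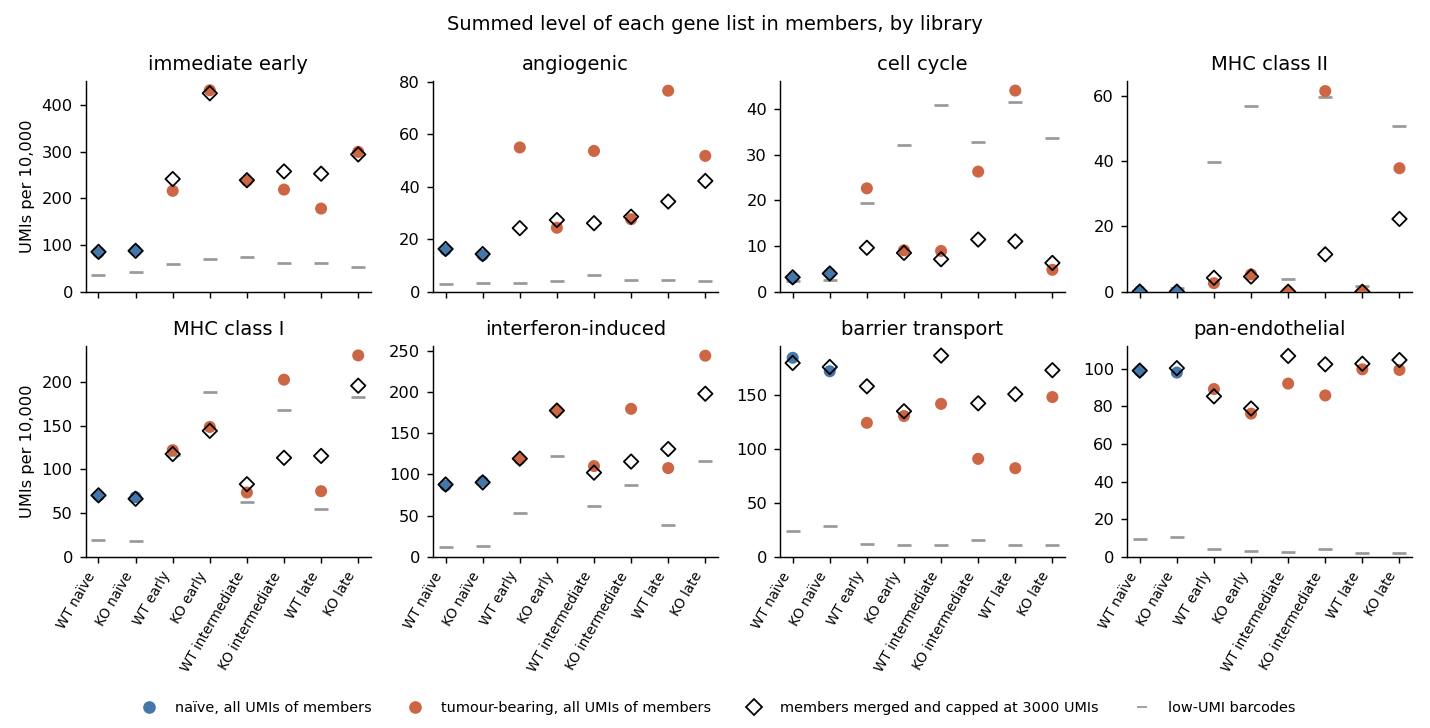
Summed level of 8 gene lists in endothelial cells by library, in UMIs per 10,000, on all UMIs (circles) and with like barcodes merged and cells capped at 3000 UMIs (diamonds); dashes are low-UMI barcodes. The immediate early list keeps its level when capped, whereas the angiogenic list is lower in WT early (24.2 against 55.0) and WT late (34.4 against 76.6), and the cell cycle list in WT early, KO intermediate and WT late.

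Genes of sprouting and angiogenesis rose on all UMIs but rested on a few cells. Of 13 tested of 18 listed, 10 rose, against 3.6% of all genes, and 0 fell (median log2 fold change 2.44). Capped, 4 rose (*Apln*, *Angpt2*, *Pgf* and *Col4a1*, median 1.15, against 2.23% of all genes), and 3 without the largest cells (1.61%). Summed, the list was at 15.97 and 13.9 in naïve and at 55.0, 24.4, 53.6, 27.6, 76.6 and 51.8 in the tumour-bearing libraries in the order above, or capped at 16.3 and 14.4 against 24.2 to 42.2. All 6 stayed above both naïve libraries in either form.

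*Apln* (chromosome X, 48025146 to 48034853, minus strand), the apelin peptide made by tip cells, had 0 and 2 UMIs in the naïve libraries. It had 197 in WT early, of which 189 lay in 1 of 28 cells, and 84 in WT late, of which 82 lay in 1 of 10 cells. The other libraries held 10 (KO early), 7 (WT intermediate), 2 (KO intermediate) and 1 (KO late). Thinned, it was in 1 of 181 naïve and 6 of 79 tumour-bearing cells (0.552% and 7.59%), while other cells held it at 5.40% in naïve libraries, and 3.24% in tumour-bearing ones. Its log2 fold change was 7.05 (SE 1.09, edgeR adjusted p = 0.00038), 5.66 capped and 4.26 (adjusted p = 0.0124) without the largest cells. *Angpt2* (chromosome 8, 18690263 to 18741562, minus strand), which loosens the contact of endothelium and pericytes, was at 0.159 and 0.188 in naïve and at 4.86, 1.70, 0.688, 0.250, 10.98 and 2.52 in the tumour-bearing libraries, with 73 of the 74 UMIs of WT late in 1 cell (log2 fold change 4.25, capped 3.49, without the largest cells 3.27, adjusted p = 0.0047). *Pgf*, a ligand of the receptor Flt1, lay in 5 of 80 tumour-bearing cells and was at 0 in KO early and KO intermediate. *Adm*, adrenomedullin, which is induced by low oxygen, passed on all UMIs (adjusted p = 0.000463) and had a log2 fold change of 1.65 capped (adjusted p = 0.536). *Trp53i11*, *Mcam*, *Lama4*, *Lamb1* and *Nid2* also passed on all UMIs and not when capped. Without WT naïve 2 of 14 passed, and without WT early or WT late 5 of 12. *Plvap*, the diaphragm protein of fenestrated vessels, had 5 UMIs in all, in KO intermediate and KO late, and the VEGF receptors *Kdr*, *Nrp1* and *Nrp2* had log2 fold changes of 0.02, -0.17 and 0.01, none of which passed.

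Basement membrane genes gave fewer calls in each successive fit. Of 16, 5 rose on all UMIs (*Col4a1*, *Lama4*, *Lamb1*, *Nid1* and *Nid2*), 1 capped and 0 without the largest cells. Of all genes 3.6%, 2.23% and 1.61% rose in these fits. Without the largest cells 3 of the 16 were higher at an unadjusted p under 0.05, and DESeq2 called 4. *Col4a1*, the main collagen of the vascular basement membrane, was at 3.49 and 2.78 in naïve and at 7.88, 5.10, 16.5, 7.82, 11.9 and 11.9 in the tumour-bearing libraries, which do not overlap (log2 fold change 1.51, SE 0.38, adjusted p = 0.0234, capped 1.15, adjusted p = 0.0353). It was also a member of the angiogenic list.

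Cell cycle genes rose, again in few cells. The list summed to 3.02 and 4.003 in naïve and to 4.81 (KO late) to 44.1 (WT late) in tumour-bearing libraries, or capped to 6.32 to 11.4. Of 14 cell cycle genes tested of 22 listed, 9 rose (3.6% of all genes), 3 of them (*Top2a*, *Mki67* and *Cenpf*) also when capped (2.23%). *Top2a* (chromosome 11, 98992943 to 99024189, minus strand), the topoisomerase of replicating cells, had 0 UMIs in 186 naïve cells and was found in 14 of 80 tumour-bearing cells, in all 6 libraries. WT early held 66 UMIs (57 in 1 cell), KO early 3, WT intermediate 2, KO intermediate 58 (40 in 1 cell), WT late 62 (61 in 1 cell) and KO late 5. With naïve libraries at 0 the fitted fold is again no bound. The log2 fold change was 9.08 (SE 1.01, adjusted p = 1.37e-05), 6.59 capped and 6.95 without the largest cells. Thinned, 11.4% of tumour-bearing endothelial cells held it, against 19.5% of other cells of those libraries. Its level was 4.85 to 9.13 in low-UMI barcodes and 0.567 to 9.20 in the endothelial sums, which were the lower in 5 of the 6 libraries. The part of RNA outside cells was not tested. *Mki67*, the proliferation antigen Ki-67, also had 0 UMIs in naïve cells (log2 fold change 8.51, capped 5.92), and had 0 in KO late.

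Barrier genes, by contrast, gave 1 call when tested gene by gene, and no list was tested as a whole. Of 24 transport genes, 1 fell, against 0.918% of all genes. It was *Slc6a6*, the taurine transporter, which went from 12.8 and 12.7 to between 3.41 and 9.83 (log2 fold change -1.19, SE 0.34, edgeR adjusted p = 0.0489), without overlap. In 6 of the 24 every fitted tumour-bearing library lay below both naïve ones, as in 9.3% of all genes. When capped 0 fell, and 1 was lower at an unadjusted p under 0.05. The median was -0.61 on all UMIs, with 21 of 24 negative (2185 of 4357 over all genes), and -0.27 capped. *Abcb1a*, the efflux pump P-glycoprotein, was at 30.7 and 28.4 in naïve and at 20.0, 19.5, 10.3, 12.8, 11.4 and 30.7 in the tumour-bearing libraries (log2 fold change -0.71, SE 0.36, adjusted p = 0.322, capped -0.19). The KO late library lay at the naïve level. *Slc2a1*, the glucose transporter GLUT1, was at 9.33 and 10.9 and at 6.83 to 11.4 (log2 fold change -0.29), and *Mfsd2a*, a lipid transporter of barrier capillaries, at 2.16 and 2.88 and at 1.06 to 3.44 (-0.61). Of 8 junction genes 0 passed (median -0.27), with *Cdh5*, VE-cadherin, at -0.02 and *Tjp1*, ZO-1, at -0.63. The Wnt list, whose pathway keeps the barrier, had 0 of 17 (median -0.48). At an unadjusted p under 0.05, 6 transport, 2 junction and 4 Wnt genes were lower and 0 higher, and DESeq2 called 1 transport gene. Summed, each list was lower in every tumour-bearing library than in both naïve ones. Transport was at 184 and 172 against 82.1 to 148, junctions at 56.9 and 58.2 against 38.5 to 47.9, Wnt at 33.5 and 34.9 against 18.6 to 28.6. Capped, transport (180 and 176 against 135 to 186) and junctions (53.8 and 57.6 against 43.6 to 56.0) overlapped. The Wnt list did not (33.2 and 35.7 against 25.0 to 31.9). Whether genes of the rule sway these sums was not tested.

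Zonation genes, which grade from artery through capillary to vein, gave 1 call, a fall, where 0.918% of all genes fell. *Gkn3*, an arterial marker of brain, was at 5.02 and 9.60 in naïve and at 1.71, 5.29, 2.06, 0.438, 1.19 and 2.06 in the tumour-bearing libraries. The groups overlap at KO early. Its log2 fold change was -1.93 (SE 0.47, adjusted p = 0.0196), -1.41 capped (adjusted p = 0.00356) and -1.03 without the largest cells (adjusted p = 0.168). Of 7 arterial genes 1 fell (median -0.95, capped -0.39), of 8 capillary genes 0 passed (median -0.63, all negative, capped -0.27), and of 4 venous genes 0 passed (median 0.71). At an unadjusted p under 0.05, 2 arterial and 2 capillary genes were lower and 1 venous gene higher. DESeq2 called none. *Spock2*, the most abundant capillary gene, had -1.17 (adjusted p = 0.0986), and *Ackr1*, a venular chemokine receptor, lay with 171 UMIs in 1 cell of KO intermediate and with at most 1 UMI in any other library. Shares of each zone were not compared, since the lists rest on few detected genes per cell.

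Among the remaining lists, 0 of 5 vesicle, 0 of 3 VEGF receptor, 0 of 6 Notch and 0 of 5 iron and metal genes passed, and 1 of these 19, of the iron list, was higher at an unadjusted p under 0.05. Of 5 leukocyte adhesion genes *Mcam* rose, and of 12 hypoxia and glycolysis genes *Adm*, where 3.6% of all genes rose. *Pkm*, a glycolytic enzyme, had 0.92 (adjusted p = 0.149). Of 20 endothelial genes outside the rule, *Ecscr* rose on all UMIs (1.38, adjusted p = 0.0372) and not when capped (0.62), and the median was -0.08. The 6 endothelial rule genes, as a description, had fitted log2 changes from -0.85 (*Slco1a4*) to -0.09 (*Pecam1*) on all UMIs.

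**Figure D5:**
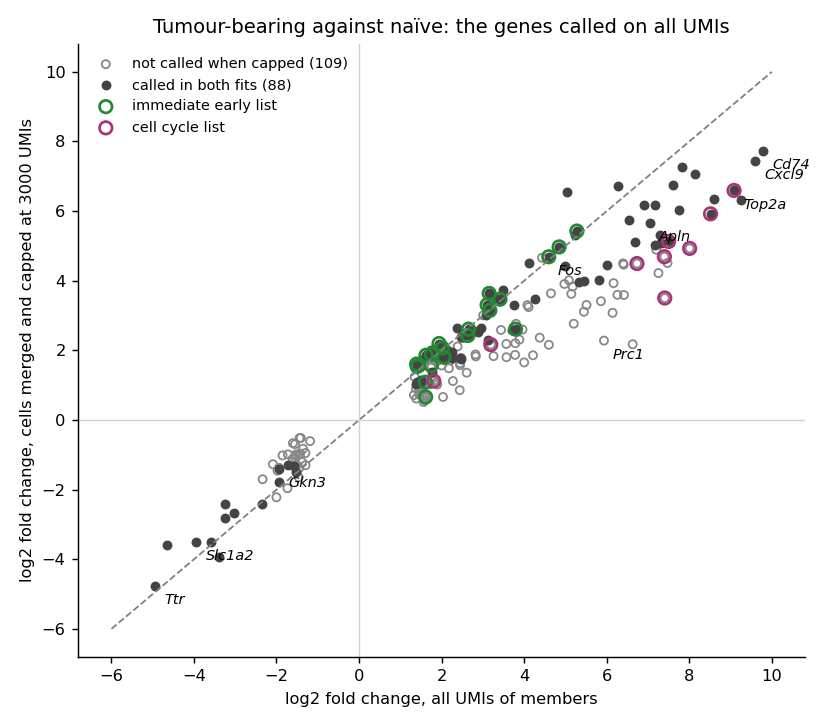
Log2 fold change between tumour-bearing and naïve libraries of the 197 genes called on all UMIs (x axis) against the same with like barcodes merged and cells capped at 3000 UMIs (y axis); filled points passed in both fits (88), open points did not pass when capped (109), and rings mark immediate early and cell cycle genes. Most immediate early genes lie near the dashed line of equality, and most cell cycle genes below it.

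The largest changes that were in no list, or headed one, add a few names. Among genes with every fitted tumour-bearing library above both naïve ones, the 10 largest rises were *Top2a*, *AA467197*, *Dusp2*, *Cxcl2*, *Cenpf*, *Cdk1*, *Upp1*, *Apln*, *Ccnb2* and *Emp1*, with log2 fold changes from 6.01 to 9.08. *Cxcl2*, a neutrophil-attracting chemokine (7.61, capped 6.74), and *AA467197* (8.59, capped 6.34) passed in all 3 fits, as did *Emp1*, an epithelial membrane protein (6.01, capped 4.46). *Cxcl2* and *AA467197* had 0 UMIs in 186 naïve cells, so their fitted folds are no bound. They lay in 7 and 11 of 80 tumour-bearing cells, and *Emp1* in 11. *Dusp2*, an inducible MAP kinase phosphatase, passed capped (6.02) but not without the largest cells (adjusted p = 0.112).

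Of the 10 largest falls, 4 were of genes listed as markers of choroid plexus or astrocytes. *Ttr*, transthyretin, made by choroid plexus, was at 11.1 and 23.4 in naïve and at 0.788, 0, 0.688, 0.250, 0.297 and 1.60 in the tumour-bearing libraries (log2 fold change -4.94, SE 0.50, adjusted p = 1.06e-05, capped -4.76). The glutamate transporters *Slc1a2* (-3.94) and *Slc1a3* (-3.59) and the aldolase *Aldoc* (-3.25), all of astrocytes, fell too. These were 3 of 6 astrocyte genes tested, whereas 0.918% of all genes fell. *Slc4a4*, a bicarbonate transporter, had -3.38. In the low-UMI barcodes *Ttr* was at 106 and 133 in naïve and at 0.211 to 33.0 in tumour-bearing libraries. Within naïve endothelial cells 262 of 349 *Ttr* UMIs of WT and 426 of 747 of KO lay in 1 cell. With the largest cell of each library left out, the log2 fold change was -4.56. The largest cell is chosen by its UMIs over all genes and not by *Ttr*. The astrocyte list was at 231 and 183 against 12.7 to 89.4 in low-UMI barcodes, above its level in endothelial cells in all 8 libraries. The part of RNA outside cells was not tested. *mt-Nd6* (-2.36), a mitochondrial transcript, had 94 of its 111 UMIs of WT naïve in 1 cell. *Dbp*, a clock-controlled transcription factor, went from 1.14 and 0.969 to 0 to 0.197 in the fitted libraries (-3.03, SE 0.65, adjusted p = 0.0064, capped -2.66, adjusted p = 0.0485). *Col14a1*, a fibril-associated collagen, was in 12 cells of each naïve library and in 2 tumour-bearing cells (-4.66, capped -3.59). *Fmo2* and *Mgll* fell on all UMIs (-2.34 and -2.09) and not when capped.

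Markers of other cells were also looked at as whole lists. Microglial genes summed to 0 to 8.93 and macrophage genes to 0.127 to 2.08, except 19.0 in KO late, where 35 of 36 *Lyz2* UMIs lay in 1 cell. Lymphocyte genes were at 0 in 5 libraries and at 10.4 in KO intermediate, oligodendrocyte genes at 3.44 to 12.4 except 49.9 in KO early, and erythrocyte genes at 0 to 4.86 except 58.8 in WT naïve. Mural genes outside the rule were at 0.500 to 15.1, highest in WT intermediate, where fibroblast genes outside the rule were at 22.01 against 0.571 to 1.89 elsewhere. With cells led by another cell type left out, 112 genes rose and 21 fell, 17 of 27 immediate early genes among them.

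To compare genotypes, libraries labelled KO and WT were compared at the naïve, early and late conditions with the stage as a block. In edgeR 4 of 3094 genes (0.129%) were higher and 6 (0.194%) lower in libraries labelled KO. Capped, 4 (0.129%) and 1 (0.0323%) passed, and without the largest cells 0 and 1, with 78 higher and 59 lower at an unadjusted p under 0.05. DESeq2 called 1 and 0. None of the 27 immediate early, 28 interferon and 24 transport genes tested was among them. Their median log2 fold changes were 0.65, 0.55 and 0.08, against -0.02 over all genes. *Mgp*, matrix Gla protein, had 1.67 and *Lyz2*, lysozyme of myeloid cells, 4.55. Both passed capped and not without the largest cells. *Cd74* had 3.22 (adjusted p = 0.0418) and did not pass in either other fit. *Hbb-bs*, a globin of erythrocytes, was lower (-7.33), with 815 UMIs in 4 cells of WT naïve against 2 UMIs in KO naïve. *Adm*, *Apln*, *Mki67*, *Prc1* and *Top2a* were lower on all UMIs (-2.22 to -3.35) and passed in neither other fit. Without the largest cells *Apln*, *Prc1* and *Top2a* turned positive. Without the early pair 0 genes passed in either direction, with 38 higher and 28 lower of 4268 at an unadjusted p under 0.05. Sex differed between the genotypes at the early stage and cannot be told apart from genotype there.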

How the data were processed

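The 8 libraries were made by Drop-seq, which counts the 3′ ends of mRNA by UMI. The authors converted the sequencer output with bcl2fastq 2.0, aligned with STAR to GRCm38 (mm10) per the labels' processing notes, and deposited UMI counts per gene and barcode without normalization; the annotation is not given in the sources used here. Each deposited table lists 3000 barcodes, so the filters of the methods were applied here: the 1000 barcodes with the most UMIs and at least 1000 genes. Gene positions are those of GENCODE release M21.

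Sums of UMIs over the endothelial cells of each library, where it held 5 or more, were tested with edgeR 4.0.16 (R 4.3.3; TMM, filterByExpr on the design, quasi-likelihood test, Benjamini-Hochberg threshold 0.05), tumour-bearing against naïve with genotype as covariate, and KO against WT with stage as block. The Wilcoxon test over cells named in the methods takes cells as replicates and was not used. The 15 genes of the rule stayed in the fit and were not counted. Shares were compared by exact permutation over libraries. The fits were tested on simulated data first. Of 200 genes changed 4-fold, 39.5% were recovered for tumour-bearing against naïve (4476 genes) and 49% for KO against WT (2951 genes), with 2 false calls in each. The simulated sums had the same spread setting for every gene and no single cells that dominate a library. These rates therefore need not hold for the real sums. Like barcodes (1 base apart in 1 library) were merged, and cells capped at 3000 UMIs, in fits added after the data were seen. Scrublet was run in scanpy 1.11.5. DESeq2 1.42.0 and other filters, rules and subsets of libraries were tried as alternatives.

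Named genes were the 10 largest changes each way among called genes whose fitted tumour-bearing libraries all lay on 1 side of both naïve libraries, every called gene of a list, the 3 most abundant genes of lists with under 2 calls, genes the study named, and the 5 largest changes each way between genotypes. Other members named by their values were chosen after these were seen. The members and lists were chosen with earlier results of these data known. Levels are proportions: fewer cells of a type and less RNA per cell cannot be told apart in a sum. Some genes are not reported here.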

Additional observations from a re-analysis of the deposited data

Results flagged for a closer look

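Among 25 values, each compared over the 6 tumour-bearing libraries, 1 library stood far from the others by Dixon's criterion at the 95% level. The 9 venous genes summed to 31.83 UMIs per 10,000 in the endothelial cells of KO intermediate, against 4.532 to 10.32 in the other 5 tumour-bearing libraries, with a gap of 0.788 of the whole range. Chance alone passes a criterion at this level in about 1 of 20 groups. With like barcodes merged and cells capped at 3000 UMIs the sum was 5.99. All 171 *Ackr1* UMIs of that library lay in 1 cell.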

How the results depend on the processing

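On all UMIs 157 genes were higher and 40 lower in tumour-bearing libraries. The number higher was 263 with no filter on low counts, 88 within WT and 77 within KO libraries, 60 without the libraries of female mice, 298 with only the 4 libraries deposited under the numbers 15 to 18, 35 with cells thinned to 1500 UMIs, 97 capped and 70 without the largest cells. The number lower was 12 with DESeq2, 122 with no filter, 20 without the mural condition, 21 with cells led by another type left out, 12 within WT, 7 within KO, 18 without female mice, 149 with libraries 15 to 18, 12 thinned, 25 capped and 11 without the largest cells. Leaving out 1 library gave 66 (KO naïve) to 189 (KO early) higher and 7 (either naïve library) to 61 (KO early) lower; it was 74 higher without WT naïve, 89 and 16 without WT early, 23 lower without KO intermediate and 21 without WT late. Fewer libraries in a fit leave fewer degrees of freedom, yet libraries 15 to 18 gave more calls than all libraries. They are WT early and KO intermediate, both of female mice, and both naïve libraries, whose sex genes go the other way. Sex and tumour cannot be told apart there. Other causes were not tested.

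KO against WT gave 4 higher and 6 lower; it gave 1 and 0 with DESeq2, 13 and 17 with no filter, 2 higher without the mural condition, 16 and 17 with tumour-bearing stages only, 1 lower capped, and 0 and 1 without the largest cells. Leaving out a stage gave 0 to 16 higher and 0 to 17 lower. Without the largest cells *Apln* (1.12), *Prc1* (0.735) and *Top2a* (0.259) reversed. The difference in share, -14.41 percentage points, kept its direction in every alternative run for it. Over named genes, 2707 values kept their side of the threshold, 341 no longer passed, 23 newly passed and 62 uncalled values changed sign.

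No paired analysis was possible because no group held a second library whose number could pair it, beyond the block by stage that the genotype comparison already has. The WT intermediate library was included in 1 added fit, with 131 higher and 38 lower. Depth limits genes under about 1 UMI per 10,000, and 12 tumour-bearing cells or fewer stand behind several of them.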
